A study of Rattus norvegicus with 2 samples.

Results

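Left ventricular (LV) RNA of salt-loaded rats given chaetocin was compared with that of salt-loaded rats left without it, on 1 dual-color array. Both groups were male Dahl salt-sensitive (DS) rats, a strain that becomes hypertensive on salt and goes on to heart failure, and both were fed 8% NaCl. The HS (ch+) group received 0.25 mg/kg of chaetocin into the peritoneum 2 times a week from 6 to 13 weeks of age, and the HS (−) group did not. The drug was dissolved in DMSO, and whether HS (−) rats received DMSO is not given in the sources used here. LV tissue was taken at the stage of heart failure, and RNA of 3 rats chosen at random was pooled for each group, so that a value here stands for a pool and not for a rat. HS (−) RNA carried the red dye Cy5 and HS (ch+) RNA the green dye Cy3. The dyes were not swapped, so dye and treatment cannot be told apart. The array carries 1 probe for each of 20174 genes, and 13639 of them had a ratio, as both channels were over the blank spots. A second array of the series read HS (−) RNA in Cy5 once more, beside normal-salt RNA, and is used here for that repeat reading.

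Chaetocin is a compound of Chaetomium fungi that inhibits methyltransferases of the SU(VAR)3-9 family. These enzymes add the last methyl groups to lysine 9 of histone H3, and the trimethylated form (H3K9me3) marks heterochromatin, the compact and mostly silent part of the genome, where many repeats lie. The study cites a later report that chaetocin may not be highly specific. It adds that more experiments are needed to learn which methyltransferase the drug inhibits in these rats. The adult ventricle is rich in mitochondria and burns mainly fat, and the failing ventricle is known for lower levels of genes of energy metabolism. The array reads RNA levels only. In bulk tissue, fewer cells of a type and less RNA per cell cannot be told apart.

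The signal of a gene is its median spot intensity minus the mean of the blank spots. The ratio is the HS (ch+) signal over the HS (−) signal, divided by 1.30, the factor that set the median log2 ratio of the array to 0. A gene is called raised when its ratio was over 1.4, the limit the study set for this ratio, and lowered when it was under 0.714, the inverse. Both calls were made over the 4752 genes with a geometric mean signal of at least 100. With 1 array there is no replicate and no test, so raised and lowered describe these pools.

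The probes carry Ensembl IDs without symbols. Names came from the study's list of 50 genes, which pairs IDs with names, and the remaining 20124 IDs have no name here. The study put a gene on that list when it was low in HS (−) against normal salt and when its ratio on this array was over 1.4. All 50 are therefore raised by selection, their ratios are a description, and none of the lowered genes has a name. Of 640 genes on lists of pathways and cell type markers, 28 had an ID through those names. No gene of inflammation, of redox control, of H3K9 methylation or of the cell cycle was among them, nor any that the study measured by PCR. Of 12 cardiomyocyte markers, 1 had an ID, Myh6, and its signals of 15969 in HS (−) and 32990 in HS (ch+) were those of a bright spot. For fibroblasts, endothelial cells, smooth muscle, blood cells, adipocytes, skeletal muscle and atrium, 0 markers had an ID, so the makeup of the tissue was not checked.

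Promoters are shown for 4 of the named genes, chosen because they stand for the roles described further on: a respiratory chain subunit, an enzyme of fat oxidation, one of glycolysis and a signalling phosphatase. Each is the 150 bases before the start of the gene from RefSeq (GRCr8), 5′ to 3′ on the strand of the gene. Capitals mark the CCAAT box (CCAAT), the GC box (GGGCGG), the TATA box (TATAAA), the cAMP response element (TGACGTCA) and the E-box (CACGTG), each sought on both strands. Ndufs8 lies at chr1:210573699-210573848 on the minus strand, Eci2 at chr17:30075616-30075765 on the plus strand, Pgam2 at chr14:84897875-84898024 on the minus strand and Dusp1 at chr10:17184703-17184852 on the plus strand.
Ndufs8: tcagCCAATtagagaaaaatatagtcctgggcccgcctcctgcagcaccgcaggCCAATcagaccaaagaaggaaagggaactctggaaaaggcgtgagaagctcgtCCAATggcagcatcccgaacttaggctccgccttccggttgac
Eci2: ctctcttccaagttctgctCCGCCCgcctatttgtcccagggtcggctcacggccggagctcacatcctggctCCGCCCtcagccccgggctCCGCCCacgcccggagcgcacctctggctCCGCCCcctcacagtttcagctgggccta
Pgam2: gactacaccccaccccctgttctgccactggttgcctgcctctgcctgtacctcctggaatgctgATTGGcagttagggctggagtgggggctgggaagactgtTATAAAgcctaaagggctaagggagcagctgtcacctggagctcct
Dusp1: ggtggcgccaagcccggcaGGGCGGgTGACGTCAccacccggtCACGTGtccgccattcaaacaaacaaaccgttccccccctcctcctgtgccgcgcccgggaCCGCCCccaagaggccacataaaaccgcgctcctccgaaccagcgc

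The promoters differ in kind. The window of Ndufs8 holds CCAAT boxes in a row and that of Eci2 repeated GC boxes, while the window of Pgam2, a gene of muscle, has a TATA box close to the start. Dusp1, an immediate early gene, has a cAMP response element beside an E-box. Over the 250 bases before the start, 36 of the 50 genes could be searched, and 7 further ones, among them Pdp2, Dhrs7c, Wfdc1, Txlnb, Adhfe1 and Mrpl19, had no entry. The CCAAT box was in 17 of the 36 (47.2%), against 35.5% of 19005 protein-coding promoters. The GC box was in 19 (52.8%), against 40.3%. The TATA box was in 2 (5.56%), against 12.3%, and the E-box in 4 (11.1%), against 6.38%. The cAMP response element was in 2, Dusp1 and Mlf1, against 2.03% of all promoters. AAGGTCA, the letters bound by estrogen-related receptors, was in 0 of the 36 and in 3.21% of all promoters. These are matches of letters and not sites of binding.

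The precision was judged from the repeat reading and from control spots. Over the 4752 genes, the log2 difference between the HS (−) readings of both arrays had an SD of 0.17, or 1.12-fold. After centering on its median, it ran from −0.47 to 1.79. It passed 1.4-fold for 49 genes (1.03%), all of them higher in the HS (−) reading of the array used here. The HS (ch+)/HS (−) ratio passed 1.4-fold in either direction for 505 (10.6%). The repeat covers the array, and the labelling only if HS (−) RNA was labelled anew for it. It does not cover the differences between rats or dyes. On the 24 spots of each positive control the log2 ratio was −0.20 (SD 0.06) for one and 0.01 (SD 0.06) for the other. Replicate spots of a control thus lay close together, while the controls differed from each other by more than that spread.

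**Figure D1:**
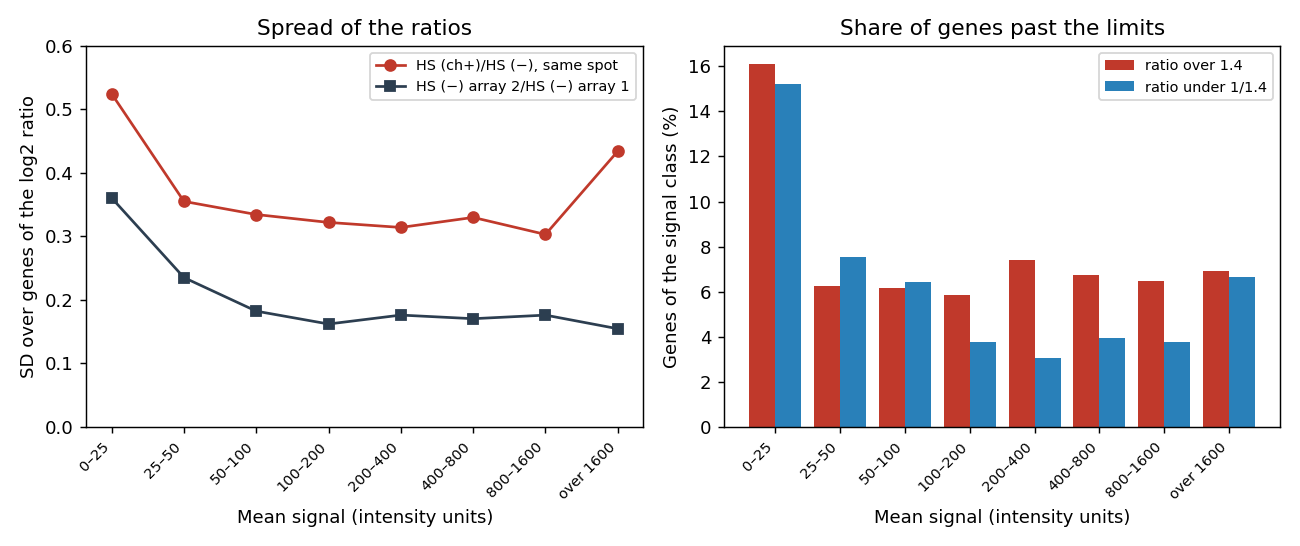
SD of the log2 ratio over genes (vertical axis) by bin of mean signal in blank-subtracted units (horizontal axis), for HS (ch+)/HS (−) on 1 array and for the repeat HS (−) reading, with the percentage of genes past each limit beside it. The SD of HS (ch+)/HS (−) was 0.52 under a signal of 25, 0.30 to 0.33 from 100 to 1600 and 0.43 over 1600.

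The width of the ratios depended on the signal, as the plot of SD by signal shows. Among the 5341 genes with a signal under 25, the SD of the log2 ratio was 0.52, and 16.1% passed the upper and 15.2% the lower limit. Among the 648 genes with a signal over 1600, the SD was 0.43, and 6.64% were lowered. From 100 to 1600, between 3.06% and 3.93% were lowered. The brightest genes thus spread more widely than those of middle signal, and the repeat HS (−) reading had an SD of 0.15 to 0.18 over the bins from 100 upward.

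In the main processing more genes were raised than lowered at 1.4-fold, and more were lowered than raised at 2-fold. Of the 4752 genes, 315 (6.63%) were raised and 190 (4.0%) were lowered. Past 2-fold, 10 genes (0.210%) were raised and 47 (0.989%) lowered. This order at 2-fold turned with the background value beside each spot (302 raised and 51 lowered) and with normexp and loess (79 and 40), and was nearly even with the repeat HS (−) reading (47 and 49). Past 4-fold, 0 genes were raised and 9 were lowered. The raised genes had a median ratio of 1.51 and 3.17% of them passed 2-fold, and the lowered genes had a median of 0.633 and 24.7% of them did. In the middle, the ratios were narrow. From the 5th to the 95th percentile they ran from 0.737 to 1.44, with a median of 1.02, and the lowest and highest 1% began at 0.501 and 1.74. Of all 13639 genes with a ratio, 1393 (10.2%) were over 1.4, 1250 (9.16%) under 0.714, 219 (1.61%) over 2 and 221 (1.62%) under 0.5.

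**Figure D2:**
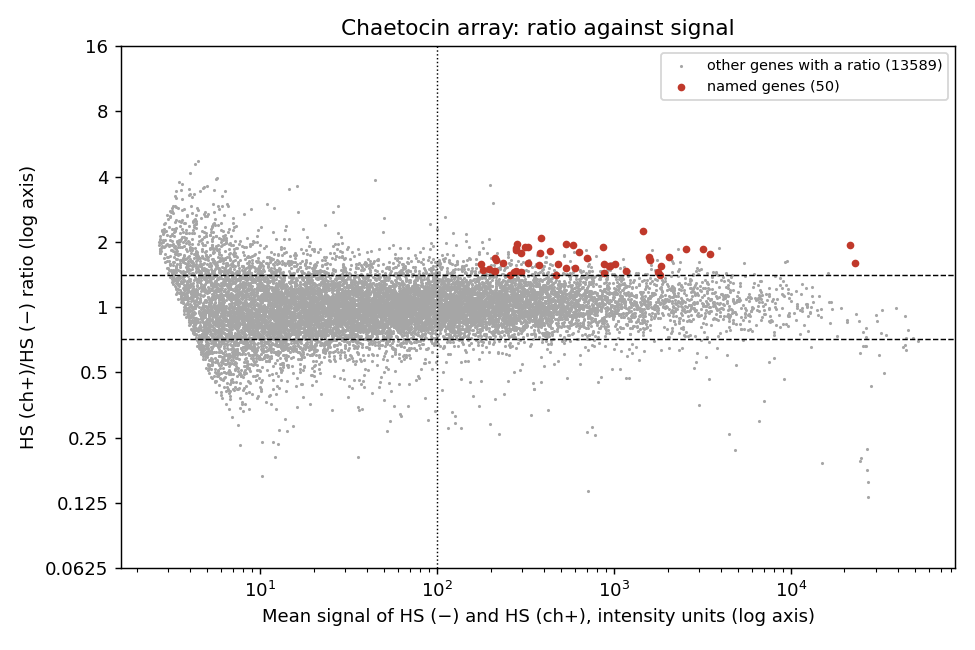
HS (ch+)/HS (−) ratio on a log axis against the mean signal of both channels on a log axis, 1 point per gene with a ratio, with the limits of 1.4 and 0.714 as dashed lines. At signals of at least 100, 315 genes lie over the upper and 190 under the lower limit, and the points farthest from a ratio of 1 lie below it.

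The split between raised and lowered depended on how the background was handled. Raised genes made up 62.4% of the called genes. With the background value beside each spot subtracted in place of the blank mean they made up 86.6%, with no background subtraction 5.63%, and at a limit of 2-fold 17.5%. The median log2 ratio of the genes counted was shifted by 0.22 with the spot background and by −0.26 with none. Which side holds more genes, at 1.4-fold as at 2-fold, thus depended on the processing, while the count under 0.5 was 35 to 68 in every alternative that kept a signal minimum. When the repeat HS (−) reading took the place of the one on the same spot, 245 of the 315 raised genes (77.8%) and 159 of the 190 lowered genes (83.7%) were called again. That exchange raised the count of raised genes to 486 and that of lowered genes to 248, both out of the 4752 genes. The HS (ch+) signal is the same in both ratios, so part of this agreement was built in.

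Genes lowered past 2-fold included some of the brightest spots on the array. The HS (−) signal of the 47 genes ran from 145 to 65400 with a median of 1060. For 24 of them it was over 1000 and for 12 over 10000. In all, 69 genes had an HS (−) signal over 10000, and 3 of the 69 were raised past 1.4. As the HS (−) signal is the denominator of the ratio, choosing genes by it favors lowered ones. By the mean of both channels, the 648 genes over 1600 held 45 raised (6.94%) and 43 lowered (6.64%), with 0 over 2 and 16 under 0.5. Of the 9 genes lowered past 4-fold, 7 were over 10000. The 47 genes lay in 31 of the 48 blocks of the array, with at most 4 in a block.

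Among genes without a name, the lowest ratio was that of ENSRNOG00000029719. Its signal was 65400 in HS (−) and 11356 in HS (ch+), and the repeat HS (−) signal was 65510. Its HS (−) spots lay next to the ceiling of the scanner, an intensity of 65535, so a level above that could not have been read. The ratio was 0.134, and from 0.0669 to 0.138 over 7 other ways of processing. ENSRNOG00000019183 followed, with 1657 in HS (−), 1358 in the repeat reading, 306 in HS (ch+) and a ratio of 0.142 (0.130 to 0.154). Both were far below the 0.714 limit whichever processing was used.

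The highest ratio was that of ENSRNOG00000022298, with signals of 91.1 in HS (−), 79.4 in the repeat reading and 432 in HS (ch+), and a ratio of 3.65. ENSRNOG00000006579 had 105, 107 and 410 and a ratio of 3.02. Over the other ways of processing these ran from 1.56 to 3.72 and from 1.31 to 2.97. Both were dim in HS (−), and their ratios moved more with the processing than those of the most lowered genes. For the 10 genes raised past 2-fold, the HS (−) signal was 58.0 to 848 and the HS (ch+) signal 173 to 2462. The minimum was set on the mean of both channels, so some of them passed it only through HS (ch+), and 4 genes over 2 were left when both channels had to reach 100. Of these 10, 2 have a name, LOC691211 and Dhrs7c.

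The 50 named genes make up 15.9% of the 315 raised genes. Their ratios ran from 1.4 to 2.24 with a median of 1.60, and they ranked from 5 to 315 among the 4752 genes, with a median rank of 96.5. In the top 50 genes there were 18 of them. With the repeat HS (−) reading the median was 1.62, the range 1.12 to 3.02, and 41 of the 50 were over 1.4. The choice of the list fixed the ratio on this array. The ratio with the repeat reading shares its HS (ch+) signal. Its HS (−) signal comes from the array on which these genes had to be low against normal salt. Both parts of that ratio thus entered the choice, so these counts describe the list only. More than 1 SD of the repeat reading past the limit were 31 genes, and 19 lay between the limit and that distance. In what follows, the first HS (−) signal is that of the same spot and the second that of the repeat reading, and ratios with the repeat reading were centered anew. Eno3, Macrod1, Cd74, Ppa2, NU3M_RAT, LOC690825 and Tardbp lay in the block of the array with the highest median ratio, 1.14.

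**Figure D3:**
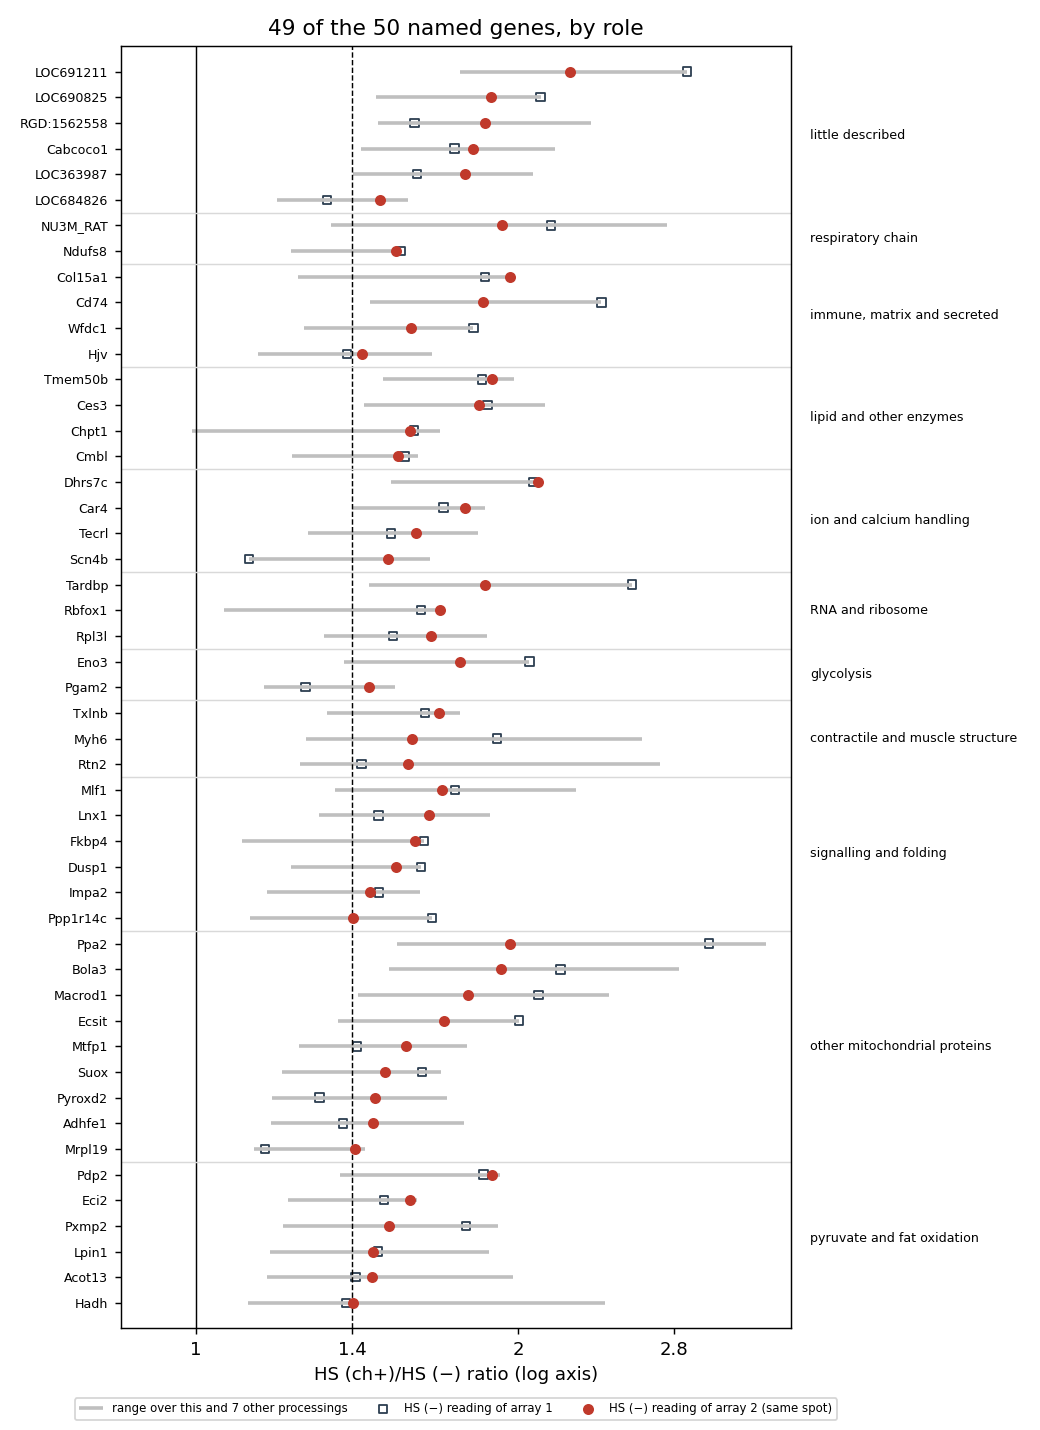
HS (ch+)/HS (−) ratio on a log axis of 49 of the 50 named genes, grouped by role, with the HS (−) reading of the same spot (filled circles) and of the other array (open squares), and the range over this and 7 other ways of processing (grey bars). All filled circles lie over 1.4 (dashed line) because the study chose the genes so, and the bar of Chpt1 reaches 0.992.

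Genes of the contractile apparatus and of muscle structure were 3, with a median ratio of 1.59. Myh6 encodes the α-myosin heavy chain, the fast cardiac myosin that the adult rodent ventricle uses. Its signals were 15969 and 11788 in the HS (−) readings and 32990 in HS (ch+), for a ratio of 1.59, or 1.91 with the repeat reading. Txlnb, a taxilin of striated muscle, had 143 and 130 in HS (−) and 312 in HS (ch+), a ratio of 1.69. Rtn2, a reticulon that shapes membranes of the endoplasmic reticulum, had 124 and 121 in HS (−) and 254 in HS (ch+), a ratio of 1.58. With the repeat reading, Txlnb was at 1.64 and Rtn2 at 1.43.

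Genes of ion and calcium handling were 5, with a median of 1.61. Dhrs7c, a dehydrogenase of the sarcoplasmic reticulum of striated muscle, had signals of 233 and 209 in HS (−) and 632 in HS (ch+), a ratio of 2.09. Car4, a carbonic anhydrase anchored to the cell membrane, had 196 and 182 in HS (−) and 454 in HS (ch+), a ratio of 1.78. Tecrl, a protein of the endoplasmic reticulum that is mutated in an inherited arrhythmia, had a ratio of 1.61. Scn4b, the β4 subunit of voltage-gated sodium channels, had 381 and 456 in HS (−) and 747 in HS (ch+), and its ratio of 1.51 was 1.12 with the repeat reading. Scn4b was thus on either side of the limit, depending on the HS (−) reading.

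Fat oxidation and the entry of pyruvate were represented by 6 genes with a median of 1.49. Pdp2, the phosphatase that switches pyruvate dehydrogenase on, had signals of 208 and 188 in HS (−) and 510 in HS (ch+), a ratio of 1.89. Eci2, an isomerase for unsaturated fatty acids, had 709 and 664 in HS (−) and 1457 in HS (ch+), a ratio of 1.58. Pxmp2, a channel of the peroxisomal membrane, had a ratio of 1.51. Apart from Pdp2 and Eci2, the genes of this group lay less than 1 SD of the repeat reading past the limit. After normexp and loess, Pdp2 was at 1.36 and Eci2 at 1.22. Lpin1, a phosphatidate phosphatase that also acts as a coactivator of fat oxidation genes, and Acot13, a thioesterase for acyl-CoA, had ratios of 1.46 each. Hadh, a dehydrogenase of β-oxidation, had signals of 1338 and 1204 in HS (−) and 2432 in HS (ch+), and its ratio of 1.4 was the lowest of the 50. With the repeat reading, Hadh was at 1.38.

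Glycolysis was represented by 2 genes, both of the muscle form. Eno3, the muscle enolase, had signals of 2303 and 1760 in HS (−) and 5278 in HS (ch+), a ratio of 1.77. Pgam2, the muscle phosphoglycerate mutase, had 1281 and 1303 in HS (−) and 2414 in HS (ch+), a ratio of 1.45, and 1.27 with the repeat reading. Of 24 genes listed for glycolysis and glucose transport, these were the ones with an ID, so the pathway as a whole was not read.

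Complex I of the respiratory chain was represented by 1 subunit of each genome. NU3M_RAT is subunit 3 of NADH dehydrogenase, encoded by mitochondrial DNA, and was among the bright spots, with signals of 13615 and 10860 in HS (−) and 34110 in HS (ch+). Its ratio was 1.93, and 2.15 with the repeat reading. Ndufs8, an iron-sulfur subunit encoded in the nucleus, had 1300 and 1141 in HS (−) and 2598 in HS (ch+), a ratio of 1.54. Of 78 nuclear subunits listed 1 had an ID, and of 13 mitochondrial genes 1.

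Other mitochondrial proteins were 9 genes with a median of 1.57. Ppa2, the mitochondrial pyrophosphatase, had signals of 335 and 193 in HS (−) and 854 in HS (ch+), a ratio of 1.96, and 3.02 with the repeat reading. Its ratio thus depended on which HS (−) reading was used, and was over 1.4 with either. Bola3, which helps to pass on iron-sulfur clusters, had 368 and 287 in HS (−) and 920 in HS (ch+), a ratio of 1.93. Macrod1, an ADP-ribose hydrolase, had a ratio of 1.79, and Ecsit, an assembly factor of complex I that also serves Toll-like receptor signalling, of 1.71. Lower down were Mtfp1, a protein of mitochondrial fission, at 1.57, Suox, the sulfite oxidase, at 1.5, Pyroxd2, an oxidoreductase, at 1.47 and Adhfe1, a transhydrogenase of hydroxyacids, at 1.46. Mrpl19, of the large subunit of the mitochondrial ribosome, had signals of 190 and 205 in HS (−) and 348 in HS (ch+), and its ratio of 1.41 was 1.16 with the repeat reading. The 13 genes that the study marked as mitochondrial had a median of 1.54, and the other 37 of 1.66. Every gene on the list was chosen for a ratio over 1.4, so these medians cannot tell whether mitochondrial genes responded more or less. The mark also left out NU3M_RAT, Bola3 and Pyroxd2, which are described here as mitochondrial.

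RNA and ribosome genes were 3, with a median of 1.69. Tardbp, the RNA-binding protein TDP-43, had signals of 179 and 116 in HS (−) and 434 in HS (ch+), a ratio of 1.86. Rbfox1, a splicing regulator of muscle and neurons, had 471 and 435 in HS (−) and 1033 in HS (ch+), a ratio of 1.69, and 1.06 after normexp and loess. Rpl3l, the form of ribosomal protein L3 found in striated muscle, had 1090 and 1048 in HS (−) and 2344 in HS (ch+), a ratio of 1.66. The ratio of Rbfox1 thus rested on the way the background was treated.

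Immune, matrix and secreted proteins were 4 genes with a median of 1.72. Col15a1, a collagen of basement membranes, had signals of 176 and 165 in HS (−) and 449 in HS (ch+), a ratio of 1.96. Cd74, the invariant chain that guides class II molecules of antigen presentation, had 2044 and 1404 in HS (−) and 4916 in HS (ch+), a ratio of 1.85, and 2.39 with the repeat reading. Wfdc1, a small secreted protein, had a ratio of 1.59, and Hjv, a coreceptor in iron control, of 1.43. Cd74 is expressed by immune cells, and no marker of those cells had an ID, so their part in this result was not tested.

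Signalling and folding genes were 6 with a median of 1.57. With the repeat reading all 6 stayed over 1.4, as did 41 of all 50 named genes. Dusp1, a phosphatase that switches off MAP kinases, had signals of 672 and 565 in HS (−) and 1343 in HS (ch+), a ratio of 1.54. Mlf1 had 1054 and 909 in HS (−) and 2322 in HS (ch+), a ratio of 1.70. Lnx1, a ubiquitin ligase, was at 1.65 and Fkbp4, a cochaperone of HSP90, at 1.60. Fkbp4 fell to 1.10 after normexp and loess. Impa2, an inositol monophosphatase, was at 1.45 and Ppp1r14c, an inhibitor of protein phosphatase 1, at 1.4.

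Lipid and other enzymes were 4, with a median of 1.71. Tmem50b, a membrane protein of the endoplasmic reticulum, had signals of 554 and 502 in HS (−) and 1361 in HS (ch+), a ratio of 1.89. Ces3, a carboxylesterase, had a ratio of 1.84, but its accessions matched a pair of near-identical genes and its identity is uncertain. Chpt1, which makes phosphatidylcholine, had 611 and 537 in HS (−) and 1255 in HS (ch+), a ratio of 1.58, and of 0.992 after normexp and loess. Cmbl, a hydrolase, was at 1.54. The ratio of Chpt1 was the one among the 50 that turned below 1 under another way of processing.

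The remaining 6 genes have little description and had a median of 1.84, or 1.68 with the repeat reading. LOC691211 led the named genes, with signals of 848 and 584 in HS (−) and 2462 in HS (ch+), a ratio of 2.24, and 2.88 with the repeat reading. A gene listed by an RGD number alone was bright, with 1637 and 1690 in HS (−) and 3956 in HS (ch+), a ratio of 1.86. LOC690825 was at 1.89, Cabcoco1 at 1.81, LOC363987 at 1.78 and LOC684826 at 1.48. Of these 6, 5 stayed over 1.4 with the repeat reading, beside 41 of all 50 named genes.

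Over 7 other ways of processing, 13 of the 50 genes were over 1.4 in every one. They were LOC691211, Dhrs7c, Ppa2, Bola3, Tmem50b, LOC690825, Tardbp, Cd74, Ces3, Cabcoco1, Macrod1, LOC363987 and the gene listed by an RGD number. Among the genes of known role in this set, Dhrs7c belongs to the sarcoplasmic reticulum, Ppa2, Bola3 and Macrod1 to mitochondria and Cd74 to antigen presentation. Tardbp binds RNA, Tmem50b is a membrane protein of the endoplasmic reticulum and Ces3 is a carboxylesterase of uncertain identity. Myh6, Eno3, Pdp2 and NU3M_RAT were under 1.4 in at least 1 of the 7. Of the 7, no background subtraction left 38 of all 4752 genes over 1.4. It shifted the median log2 ratio of the genes counted by −0.26, so falling under 1.4 there reflects the whole array. The share of all genes over 1.4 in every one of the 7 was not counted. The choice of the list used the same readings, so the count of 13 describes the list only.

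Place on the array moved with some of these ratios. The spots lie in 48 blocks, whose median log2 ratios ran from −0.10 to 0.19 with an SD of 0.06. Block 1 had the highest median, a ratio of 1.14, and 15 of its 93 genes (16.1%) were raised, against a median of 6 raised genes per block and a maximum of 18, in block 13. Of the 50 named genes, 7 lay in block 1, among them Eno3, Cd74 and NU3M_RAT. No other block held more than 4, and 23 held none. The median ratio of these 7 was 1.86 and that of the other 43 was 1.58. With the median of the block removed it was 1.63, and all 7 were over 1.4. With loess within blocks, NU3M_RAT was at 1.34 and Eno3 at 1.38, under the limit, Cd74 at 1.45, and the other 4 at 1.54 to 1.70. Over all blocks, 42 of the 50 were over 1.4 with block medians removed, and the counts over all genes became 244 raised and 218 lowered.

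**Figure D4:**
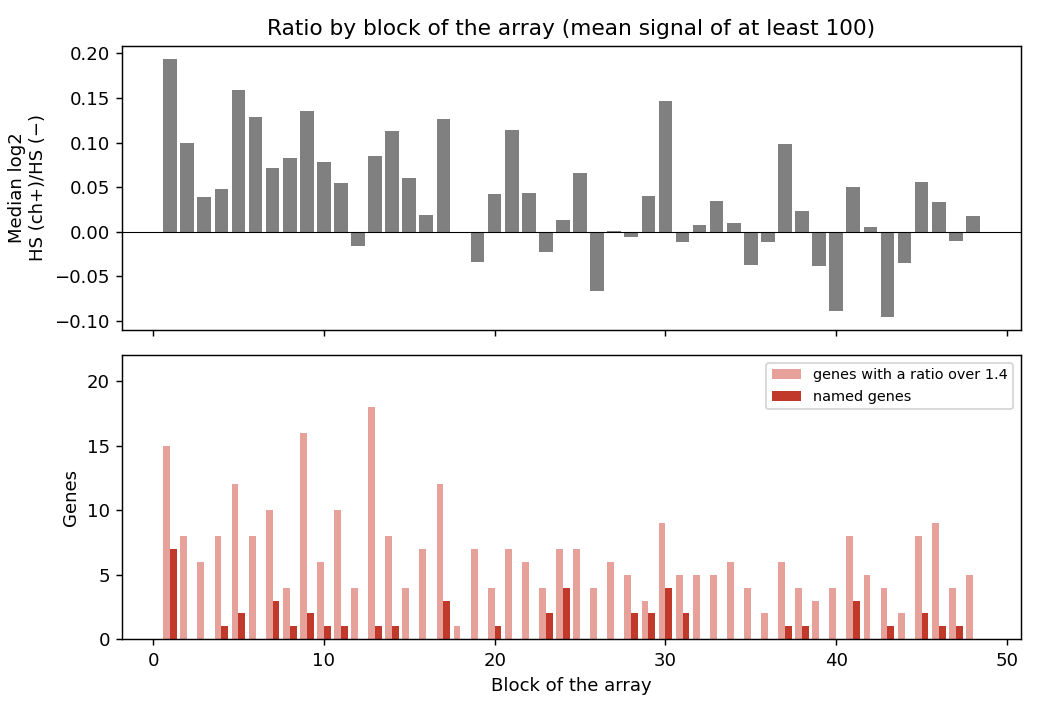
Median log2 HS (ch+)/HS (−) ratio of each of the 48 blocks of the array, over genes with a mean signal of at least 100, and the numbers of raised and of named genes in each block. Block 1 stands highest, at 0.19, and holds 7 of the 50 named genes.

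Some genes were seen in 1 channel only. In HS (−) but not HS (ch+) there were 2689, with a median signal of 2.65 and a maximum of 17.0, and in HS (ch+) but not HS (−) there were 235, with a median of 4.94 and a maximum of 10.7. In neither channel there were 3610. The signal a gene needed was 1.57 in Cy5 and 4.08 in Cy3, so the channels were not equally sensitive and the counts cannot be set against each other. None of the genes seen in 1 channel reached a signal of 100, and no bright gene was present in 1 pool and missing from the other.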

How the data were processed

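RNA of 3 rats per group was pooled, amplified to aminoallyl-labelled RNA and hybridized to a rat oligonucleotide chip of 20K design (Toray), with HS (−) in Cy5 (635 nm) and HS (ch+) in Cy3 (532 nm). Groups and dyes came from the sample labels. The authors deposited the median intensity of each spot, merged from scans at 3 gains and without normalization, with a background value beside it, and a table of log2 values, 1 per gene and array. The scale, centering and direction of that table are not stated. Set against the intensities, it proved to hold log2(Cy3/Cy5) after the steps that follow, with a largest difference of 4.55578e-06 and a median of 0.0010 over genes.

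The mean of 4553 blank spots, 5% trimmed at each end, was subtracted in each channel (25.5, SD 0.786, in Cy5 and 51.2, SD 2.04, in Cy3). Both channels had to exceed it by 2 SD. The median log2 ratio over genes and 521 quality control spots, 0.38, was then subtracted. Of 13640 genes detected in both channels, 1 with a scanner flag was left out. Median signals were 39.7 in HS (−) and 50.4 in HS (ch+), and 0 spots were saturated. Without counts, 1 array limits the precision, and no test was made. The limit of 1.4 is the study's. The study asked for a level of at least 100 in HS (−), whereas the minimum of 100 was set here on the geometric mean of both channels, which lets in genes under 100 in HS (−).

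The alternatives were the background value of each spot, none, loess, normexp (offset 50) with loess, the deposited table, 3 SD over blanks, other signal minimums and limits, removal of saturated spots and the HS (−) reading of array 1. Block medians, loess within the 48 blocks and removal of block 1 were added after seeing the data. The 7 other ways of processing quoted beside single genes are the spot background, none, loess, normexp with loess, the HS (−) reading of array 1, block medians and loess within blocks. Steps were tested on simulated data, with 2-fold changes planted in brighter genes. The simulated noise was smaller than the spread of the repeat reading, and no differences between blocks were simulated. That test therefore does not measure the precision of calls at 1.4-fold. The versions were limma 3.58.1 under R 4.3.3 for loess and normexp, and pandas 2.3.3, numpy 2.4.6 and matplotlib 3.10.9 under Python 3.11.15 for the rest.

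The genes, gene lists and members were chosen with earlier results of these data known. Among named genes, the rule took the 15 with the highest and the 15 with the lowest ratio, and up to 4 members of each list farthest past 1.4. The rest of the 50 were added, with values seen, so that the list is accounted for. At most 2 IDs without a name are given per direction, and 1 of the 50 is counted but not reported here. Of the 50, 35 were matched to the RefSeq gene table (GRCr8) by accession and 8 by symbol or synonym, and 7 keep the study's name; 0 of the array's IDs are in that table. No coordinates of probes are given, as the build behind the IDs is not given in the sources used here.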

Additional observations from a re-analysis of the deposited data

How the results depend on the processing

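Against 315 genes over 1.4, the count was 1411 with the background value of each spot, 38 with no background subtraction, 475 with normexp and loess, 486 with the HS (−) reading of array 1, 1393 with no signal minimum, 170 at a limit of 1.5 and 10 at a limit of 2. Against 190 genes under 0.714, it was 637 with no background subtraction, 1250 with no signal minimum and 47 at a limit of 2. Against 10 genes over 2, it was 302 with the spot background, 2 with none, 79 with normexp and loess, 47 with the reading of array 1, 219 with no minimum, 3 with a minimum of 200 and 4 with 100 required in both channels. Against 47 genes under 0.5, it was 221 with no minimum. All other counts, loess and the block corrections included, lay within 1.5 times the main ones. For the deposited table and the removal of saturated spots this was fixed in advance. The table holds the values of the main processing, and 0 spots were saturated. The limit of 3 SD over blanks could hardly matter either, as the genes counted had a mean signal of at least 100.

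The median log2 ratio of the 50 named genes, 0.68, became 0.90 with the spot background and 0.35 with none. In the same order it went from 0.62 to 0.84 and 0.29 for the 13 genes that the study marked as mitochondrial. The pathway lists were read only through members among the 50 chosen genes, so the pathways as a whole were not read. For the list titled adult sarcomere (3 of 24 genes: Myh6, Txlnb and Rtn2) it went from 0.67 to 1.38 and 0.34. Of these, Myh6 is the contractile protein, so the value does not describe the sarcomere. For calcium handling and ion transport (4 of 38) it went from 0.72 to 0.90 and 0.38 (0.50 with normexp and loess). For fatty acid oxidation (4 of 40) it went from 0.55 to 0.95 and 0.22. For the list titled mitochondrial biogenesis and ribosome (7 of 28) it went from 0.65 to 0.84 and 0.32. Its members here were Mtfp1, Suox, Mrpl19, Adhfe1, Ppa2, Ecsit and Macrod1. Of these, Mrpl19 is the ribosomal one, and several are enzymes of other roles, so the value does not describe biogenesis. The log2 ratio of Chpt1 turned to -0.012 with normexp and loess. The cause was not tested, apart from the minimums and limits, which change the genes counted. The spread of ratios was widest under a signal of 25, and genes that dim enter the counts only where no minimum was set. No paired analysis was possible because the comparison was made on 1 array.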
